A study of Homo sapiens with 6 samples.

Results

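The genes described here are 45 reported targets of the microRNA miR-21, chosen by gene symbol from a list and each read by its brightest probe set that names it alone. The cells were SKOV3, a single established human ovarian cancer line. In the miR21 group (3 arrays) they had received miR21 precursor, 5 nM, and in the control group (3 arrays) a precursor microRNA that serves as negative control, whose dose is not labelled apart, with RNA taken 24 h after transfection. Both groups had therefore been given a precursor, whose uptake the labels do not state, and no culture without transfection was analysed here. The comparison asks whether transcripts of these reported targets differed in level with the miR21 precursor. Of the 45 genes, 43 had a probe set that names them alone, and 39 of these lay above the signal filter and are called measured, against 12204 measured genes of 19775 in the whole table. KRIT1 and RASA1 are named by no probe set of the annotation used here, and IL12A, CPEB3, SOX2 and EIF4A2 lay below the filter.

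MicroRNAs of this kind guide Argonaute proteins to messenger RNAs, mostly through pairing of the seed near the 5′ end of the microRNA with the 3′ untranslated region, and the paired transcript is then degraded or translated less. miR-21 is abundant in many carcinomas, and its reported targets are largely inhibitors of growth signalling and invasion, and promoters of apoptosis. A target can also be held down at the protein level alone, which an array of transcripts does not read. The mature strand is shown because the seed defines which transcripts can pair. Beside it stands the only other mature microRNA of the RefSeq table that has the same seed. The hairpin is the RNA, encoded in the genome, from which the mature strand is cut. Capitals mark the seed, bases 2 to 8, in the mature strands, and the mature strand in the hairpin.

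hsa-miR-21-5p: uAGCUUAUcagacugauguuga

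hsa-miR-590-5p: gAGCUUAUucauaaaagugcag

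MIR21 hairpin: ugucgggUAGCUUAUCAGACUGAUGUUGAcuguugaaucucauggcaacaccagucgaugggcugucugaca

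In GRCh38.p14 the mature miR-21-5p lies on the plus strand at chr17:59841273-59841294, inside the hairpin at chr17:59841266-59841337, where it takes bases 8 to 29. Mature miR-590-5p lies on the plus strand at chr7:74191213-74191234. Of 2370 mature microRNAs in the table, 2 carry this seed. Outside the seed, miR-21-5p and miR-590-5p have the same base at 1 of 15 positions when aligned from the 5′ end. A transcript that pairs with the whole seed holds AUAAGCU. Transcript sequences were not used here, so which of the genes hold it is not given.

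Each array was scaled before deposit to the same trimmed mean, and the number of arrays limits the precision. The arrays of replicate number 1 stood apart from the rest, with a median signal over all probe sets of 117 on the miR21 array and 125 on the control array, against 55.2 to 61.9 on the other 4. Same-numbered arrays of the groups deviated together from their group means, so differences within the replicate numbers are given for many of the genes beside the mean. The epithelial genes KRT7, KRT8, KRT18, KRT19 and EPCAM, the receptor gene ERBB2 and the Müllerian factor gene PAX8 were above the filter, while MUC16 and WT1, which mark serous ovarian carcinoma, were below it. Of the 7 markers of leukocytes, endothelium and fibroblasts given here, 6 were below the filter, and PECAM1 was above it through the arrays of number 1, with signals of 397, 22.3 and 52.0 on the miR21 arrays and 483, 44.6 and 53.4 on the control arrays. These markers, and replicate number 1, stand beside every result below, and their part in the results was not tested.

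Among the cytoskeletal targets, TPM1, an actin-binding tropomyosin, was lower with miR21 in every replicate number. Its brightest probe set read 2814, 3709 and 7341 on miR21 arrays 1, 2 and 3, against 6432, 8046 and 8587 on control arrays 1, 2 and 3. The miR21 arrays of numbers 1 and 2 were below every control array, and the miR21 array of number 3 was above the control array of number 1, so the groups overlapped. The log2 difference, miR21 minus control, was -0.85 (SE 0.39, 3 arrays a group, limma), a signal 1.80-fold lower. Here and below, the SE is from the fit without replicate number, so it includes the spread between numbers. With replicate number as a block the SE was smaller for 39 of the 39 genes, at 0.20 for TPM1. In numbers 1, 2 and 3 the TPM1 difference was -1.19, -1.12 and -0.23. As in any array of whole-culture RNA, fewer cells and less RNA per cell cannot be told apart.

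The probe set is of a type whose probes may match related sequences, but TPM1 was also read by 4 other probe sets above the filter, and all were lower in all 3 numbers. Their log2 differences were -0.90, -0.75, -2.44 and -1.22. The one at -2.44 read 39.5, 96.1 and 147 on the miR21 arrays and 444, 1027 and 197 on the control arrays. Control array 3 was thus well below the other controls for it, and the difference was -0.42 in number 3, against -3.49 and -3.42 in numbers 1 and 2. MARCKS, a membrane-bound substrate of protein kinase C that binds actin, read 2581, 2106 and 2311 on the miR21 arrays, against 2896, 2698 and 3120 on the control arrays. Every miR21 array was below every control array, by a small margin, with a log2 difference of -0.32 (SE 0.26). It differed by -0.17, -0.36 and -0.43 in numbers 1, 2 and 3, and its 4 other probe sets above the filter differed by -0.58 to -0.05. The signalling scaffold gene SASH1 differed by -0.57 and -0.56 in numbers 1 and 2 and by 0.21 in number 3.

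**Figure D1:**
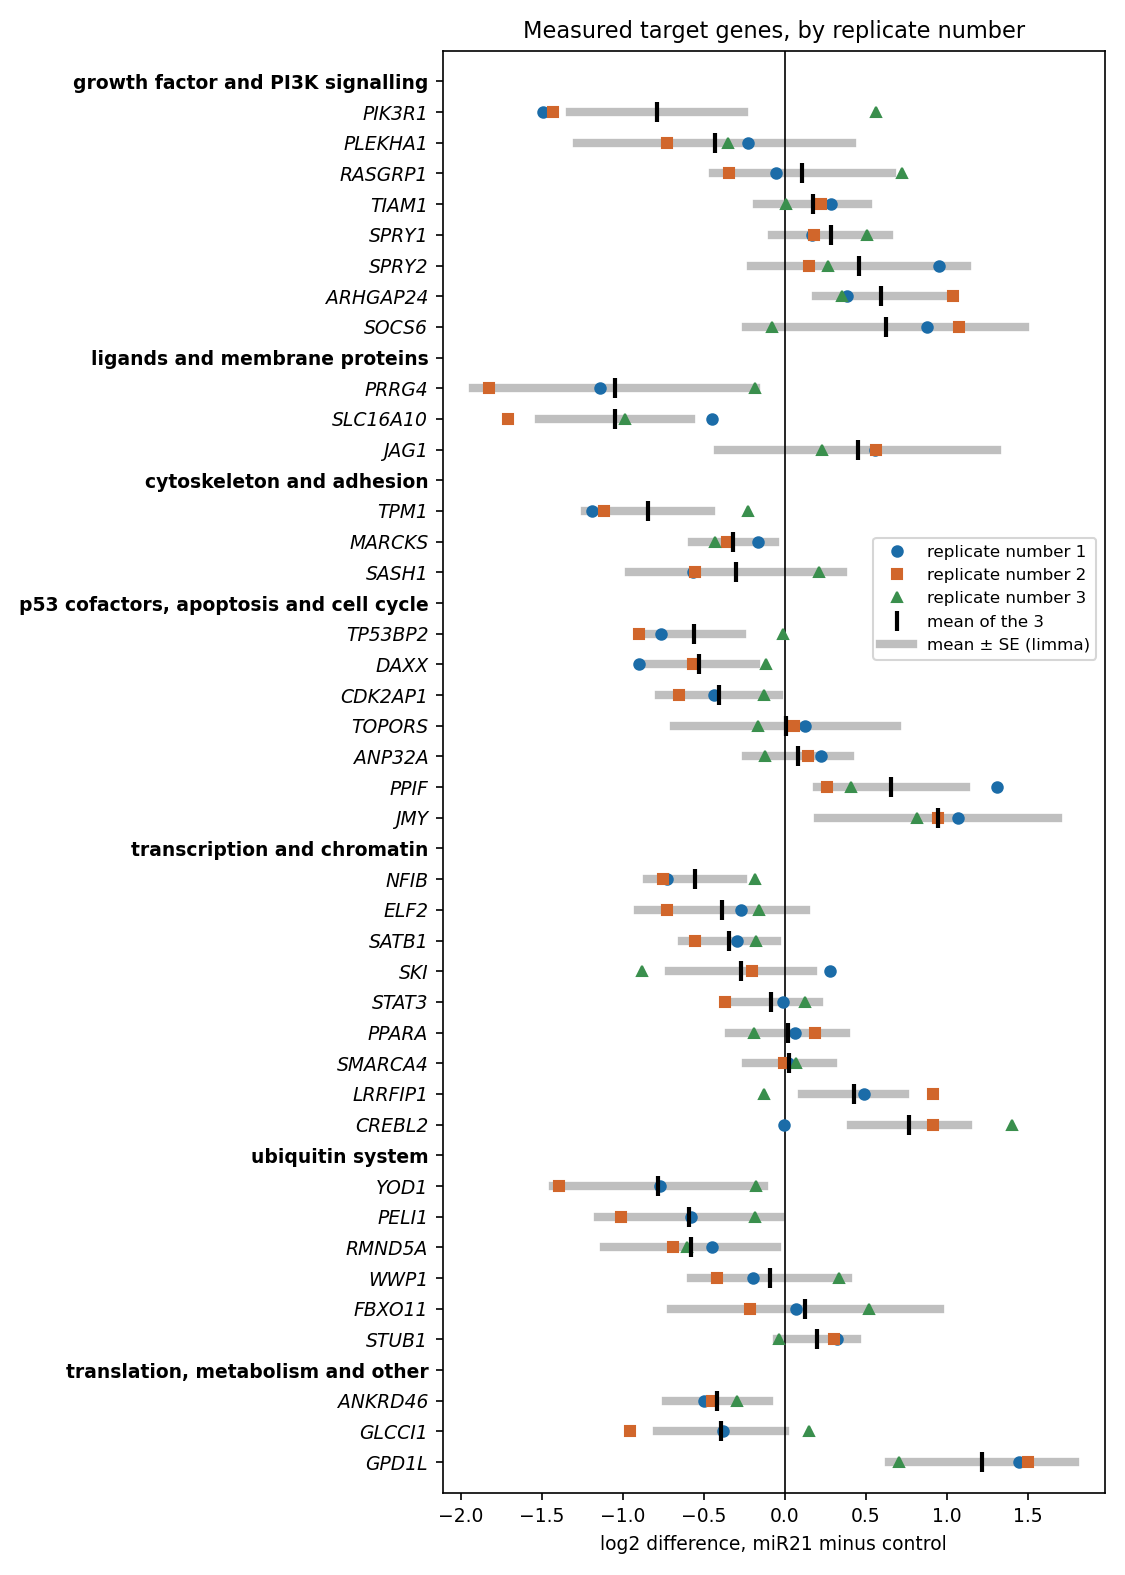
Log2 difference, miR21 minus control, of the 39 measured genes (horizontal axis), grouped by role (vertical axis), for replicate numbers 1 to 3 (circles, squares, triangles), with the mean (black tick) and the limma mean ± SE (grey bar). The SE is from the fit without replicate number. TPM1, PRRG4 and SLC16A10 lie left of 0 in all 3 numbers and GPD1L and JMY right of it, while triangles of many genes lie near 0 or on the other side.

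Of the genes for ligands and membrane proteins, PRRG4, a transmembrane protein with a gamma-carboxyglutamate domain, read 525, 84.6 and 151 on the miR21 arrays and 1161, 301 and 171 on the control arrays. The array of number 1 was the brightest of each group, so the groups overlapped, but each miR21 array was below its own control. The log2 difference was -1.05 (SE 0.88), and its other probe set differed by -0.62. SLC16A10, a transporter of aromatic amino acids, read 115, 97.6 and 174 on the miR21 arrays, against 158, 320 and 345 on the control arrays. Only the miR21 array of number 3 reached into the control range, and the log2 difference of -1.05 (SE 0.47) had the smallest unadjusted p of the 39 genes in limma, 0.0585. JAG1, a ligand of Notch receptors, lay on the other side, with log2 differences of 0.55, 0.56 and 0.23 in numbers 1, 2 and 3. Its 3 other probe sets above the filter differed by 0.39 to 0.53, while the mean of all its probe sets, 2 dim ones included, differed by -0.01. IL12A, a subunit of interleukin 12, is given without a test because all its signals were dim, at 19.1, 3.95 and 11.4 on the miR21 arrays and 59.1, 32.5 and 29.0 on the control arrays.

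The p53 cofactors and apoptosis genes went in opposite directions. JMY, a cofactor of p53 that also nucleates actin filaments, was higher with miR21 in every number, at 12493, 5674 and 2226 on the miR21 arrays and 5949, 2940 and 1264 on the control arrays. Number 1 was the highest and number 3 the lowest in both groups, so the groups overlapped although each difference was close to the next, at 1.07, 0.95 and 0.82 in numbers 1, 2 and 3. The mean was 0.94 (SE 0.74, or 0.13 with the block), a signal 1.93-fold higher, and a second JMY probe set differed by 0.96. Leaving out miR21 array 1 brought the JMY difference to 0.34, and leaving out miR21 array 3 to 1.58. PPIF, the mitochondrial cyclophilin that promotes opening of the permeability transition pore, read 2784, 3524 and 4487 on the miR21 arrays, against 1124, 2948 and 3376 on the control arrays. Its log2 difference was 0.66 (SE 0.46), with 1.31 in number 1 and 0.26 and 0.41 in numbers 2 and 3, and its other probe set differed by 0.59.

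TP53BP2, which encodes the p53-binding protein ASPP2, read 1114, 1235 and 1529 on the miR21 arrays and 1894, 2309 and 1542 on the control arrays. The groups did not overlap, though the highest miR21 array and the lowest control array, both of number 3, were nearly equal: number 3 differed by -0.01, and numbers 1 and 2 by -0.77 and -0.90. The mean log2 difference was -0.56 (SE 0.30). DAXX, a death-domain-associated histone chaperone, read 335, 553 and 647 on the miR21 arrays, against 626, 820 and 701 on the control arrays, a log2 difference of -0.53 (SE 0.35), with its other probe set at -0.44. CDK2AP1, an inhibitor of the kinase CDK2, differed by -0.44, -0.65 and -0.13 in numbers 1, 2 and 3. TOPORS, a ubiquitin and SUMO ligase of p53, and ANP32A, an inhibitor of protein phosphatase 2A, differed by 0.0044 and 0.08.

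**Figure D2:**
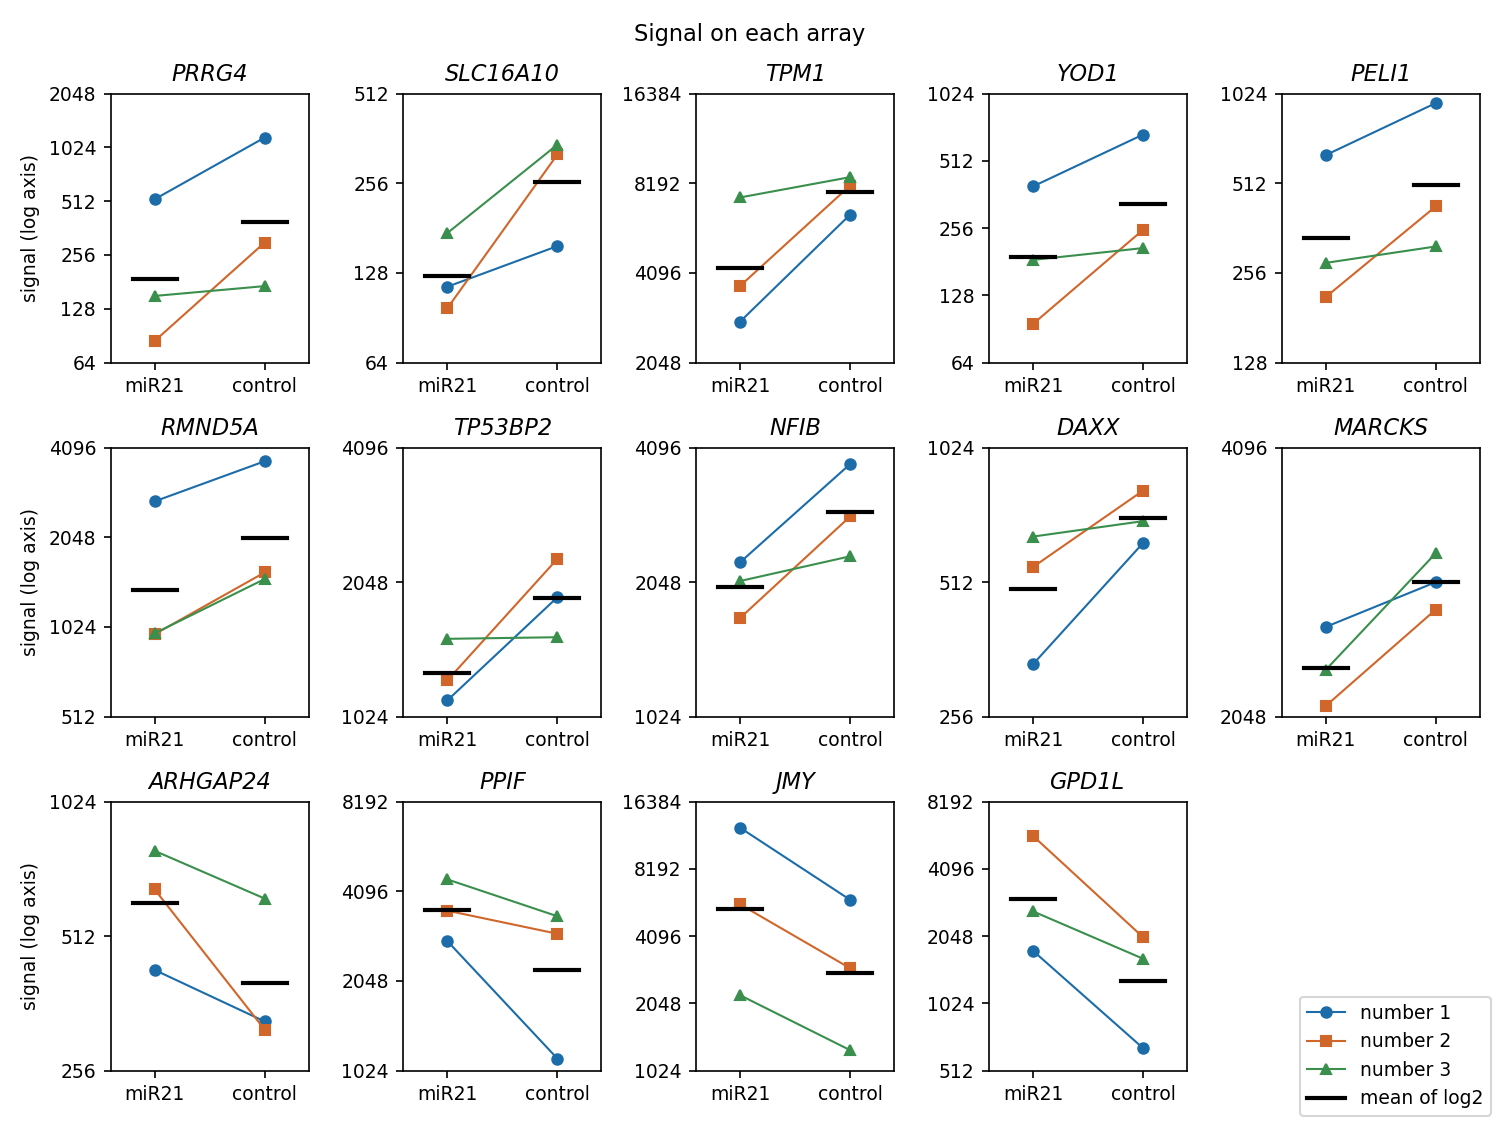
Signal of the brightest probe set on each array (vertical axis, log scale) for the 14 genes whose groups did not overlap or that differed by 0.5 or more on average with 1 sign in all 3 numbers, miR21 on the left and control on the right, same-numbered arrays joined, black bars at the mean of the log2 signals. All lines of the 10 genes from PRRG4 to MARCKS run upward to the control side and all lines of ARHGAP24, PPIF, JMY and GPD1L run downward, though in several genes by little in number 3.

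Of the 8 measured targets that act in growth factor and PI3K signalling, 6 had a mean difference above 0. The Sprouty genes SPRY1 and SPRY2, feedback inhibitors of receptor tyrosine kinase signalling differed by 0.28 (SE 0.36) and 0.46 (SE 0.67). SPRY2 read 1016, 503 and 207 on the miR21 arrays and 525, 453 and 172 on the control arrays, so the miR21 array was the brighter in each number while number 3 was dim in both groups. ARHGAP24, which switches off Rac, read 430, 651 and 794 on the miR21 arrays, against 330, 316 and 621 on the control arrays. Its log2 difference was 0.59 (SE 0.40), with its other probe set above the filter at 0.52. The Rac activator gene TIAM1 differed by 0.17, SOCS6, a suppressor of cytokine and receptor signalling, by 0.62 with number 3 at -0.08, and RASGRP1, an activator of Ras, by 0.11. Other SOCS6 probe sets above the filter differed by 0.02 and -0.70, so this gene had no single direction.

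On the lower side of these signalling genes stood PIK3R1, the regulatory subunit of PI3-kinase, and PLEKHA1, an adaptor that binds phosphoinositides. PIK3R1 read 320, 200 and 807 on the miR21 arrays, against 902, 542 and 547 on the control arrays. The miR21 arrays of numbers 1 and 2 were the lowest of the 6 and that of number 3 the second highest, with differences of -1.50, -1.43 and 0.56. PLEKHA1 differed by -0.23, -0.73 and -0.35 in numbers 1, 2 and 3, while its other probe set differed by -0.05 with mixed signs. In this role group 4 of 8 measured genes were higher in all 3 numbers and 1 was lower.

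Among regulators of transcription and chromatin, NFIB, a transcription factor of the nuclear factor I family, read 2269, 1703 and 2060 on the miR21 arrays and 3762, 2872 and 2339 on the control arrays. The groups did not overlap, and the log2 difference was -0.56 (SE 0.30), with -0.73, -0.75 and -0.18 in numbers 1, 2 and 3. Its 5 other probe sets above the filter differed by -0.52 to -0.32. SATB1, an organiser of chromatin loops, and the ETS factor gene ELF2 were lower in all 3 numbers as well, by -0.34 and -0.39 on average. CREBL2, a leucine zipper factor, lay on the higher side with 0.77 (SE 0.36), with 0.91 and 1.40 in numbers 2 and 3 and -0.01 in number 1. Its 2 other probe sets above the filter differed by 0.23 and 0.09, and the mean of all its probe sets by 0.37.

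The chromatin remodelling ATPase gene SMARCA4 had differences close to 0, at 0.02, -0.01 and 0.07 in numbers 1, 2 and 3, and its 7 probe sets above the filter differed by -0.29 to 0.03. The transcription factor gene STAT3 differed by -0.08, the nuclear receptor gene PPARA by 0.02 and the SMAD corepressor gene SKI by -0.27. Their probe sets above the filter lay on both sides of 0. These spread from -0.40 to 0.36 for STAT3, from -0.14 to 0.02 for PPARA and from -0.27 to 0.25 for SKI. LRRFIP1, a nucleic acid binding repressor, had no single direction: its brightest probe set differed by 0.43, and the 8 that lay above the filter spread from -0.97 to 1.27, 4 on each side of 0. The pluripotency factor gene SOX2 was below the filter, with signals of 77.3, 7.30 and 50.7 on the miR21 arrays and 42.2, 44.5 and 28.2 on the control arrays.

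Genes of the ubiquitin system included 3 that were lower in all 3 numbers. RMND5A, a subunit of the CTLH ubiquitin ligase, read 2702, 968 and 975 on the miR21 arrays, against 3683, 1560 and 1483 on the control arrays. Its differences of -0.45, -0.69 and -0.61 were of like size in the 3 numbers, with a mean of -0.58 (SE 0.53). Its 2 other probe sets differed by -0.18 and -0.39. YOD1, a deubiquitinase, read 393, 95.4 and 184 on the miR21 arrays and 670, 251 and 208 on the control arrays, a log2 difference of -0.78 (SE 0.65). PELI1, a ubiquitin ligase of Toll-like receptor signalling, read 636, 213 and 277 on the miR21 arrays, against 951, 428 and 314 on the control arrays, a log2 difference of -0.59 (SE 0.56). Each miR21 array of YOD1 and PELI1 was below its own control, and number 3 differed least, by -0.18 for each gene. The other ligase genes, WWP1, FBXO11 and STUB1, differed by -0.09, 0.13 and 0.20, each with mixed signs.

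Of the remaining targets, GPD1L, a relative of glycerol-3-phosphate dehydrogenase, had the largest difference of the 39 genes and was higher with miR21. It read 1760, 5748 and 2643 on the miR21 arrays, against 646, 2026 and 1623 on the control arrays. Each miR21 array was above its own control, and only control array 2 reached above the lowest miR21 array. The log2 difference was 1.22 (SE 0.57), a signal 2.33-fold higher, with 1.45, 1.50 and 0.70 in numbers 1, 2 and 3. GPD1L was read by 1 probe set, so no second readout is at hand. ANKRD46, a gene of little known function, differed by -0.50, -0.45 and -0.30 in numbers 1, 2 and 3, and GLCCI1, a glucocorticoid-induced gene, by -0.38, -0.95 and 0.15.

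CPEB3, a repressor of translation, was below the filter, at 19.4, 12.2 and 11.9 on the miR21 arrays and 39.9, 54.9 and 31.4 on the control arrays. As for IL12A, no miR21 array reached the lowest control array, at signals where values from this kind of array are noisy. The RNA helicase gene EIF4A2 is named alone only by a dim probe set. A bright probe set that names EIF4A2 together with small RNA genes of its locus, not used for the gene here, read 15292, 9089 and 9736 on the miR21 arrays and 16210, 11871 and 9488 on the control arrays.

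None of these differences passed the test. In limma over all 12204 genes with Benjamini-Hochberg adjustment, 0 of the 39 were called at an adjusted p under 0.05, as were 0% of all genes, and the adjusted p was 0.9999 for each. At an unadjusted p under 0.05, 0 of the 39 were lower or higher, against 1.26% of all genes lower and 1.18% higher. When limma was given replicate number as a block, it called 0 of the 39 and 0.0328% of all genes, and JMY and GPD1L had the smallest adjusted p of the 39, 0.0710 for each. With the block, 12 of the 39 had an unadjusted p under 0.05 on the lower side, against 10.3% of all genes, and 6 on the higher side, against 9.82%. The 12 make 30.8% and the 6 make 15.4% of the 39. Without the arrays of number 3, the block fit called 16 of the 39 lower and 9 higher, where 16.9% and 15.9% of all genes were called, on 2 pairs with 1 residual degree of freedom per gene. Without number 1 it called GPD1L alone (adjusted p = 0.0415), on the higher side, where 0.295% of all genes were called higher and 0.188% lower, and without number 2 it called 0.

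As a list the genes had no settled direction. The median log2 difference of the 39 was -0.09, against -0.01 over all genes tested, with 21 below 0 (53.8%, against 51.2% of all genes), and it was 0.0059 with each array centred on its median. It was -0.12 without both arrays of number 1, 0.03 without control array 1 and -0.39 without miR21 array 1. In all 3 numbers 15 genes were lower (38.5%, against 20.9% of all genes) and 8 were higher (20.5%, against 20.3%). A mean of -0.5 or less was reached by 10 genes (25.6%, against 11.6%) and of 0.5 or more by 6 (15.4%, against 9.62%). By the brightest probe set, the groups did not overlap for 3 genes on the lower side, TP53BP2, NFIB and MARCKS (7.69%, against 3.27%), and for 0 on the higher side (against 3.38%). By exact permutation of the 6 arrays, two-sided, p was 0.1 for each of these 3, the least that 3 arrays against 3 can give, each with all 3 miR21 arrays lower. The groups did overlap in every other NFIB and MARCKS probe set above the filter. TPM1 overlapped by its brightest probe set, but not by its probe sets that differed by -0.75, -2.44 and -1.22. These shares are descriptions, since the list was chosen with results of these data known.

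The differences were spread unevenly over the replicate numbers. The median of the 39 was -0.06, -0.36 and -0.08 in numbers 1, 2 and 3, and -0.03, 0.00032 and -0.00025 over all genes. Differences of 0.5 or more in size were found for 16 genes in number 1, 23 in number 2 and 10 in number 3. These make 41.0%, 59.0% and 25.6% of the list, against 34.0%, 38.9% and 16.7% of all genes. For 23 of the 39 (59.0%) the difference was smaller in number 3 than in numbers 1 and 2, against 52.5% of all genes. For 12 (30.8%), among them PIK3R1, SASH1 and GLCCI1, number 3 had the sign opposite to that of numbers 1 and 2, against 33.5% of all genes.

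**Figure D3:**
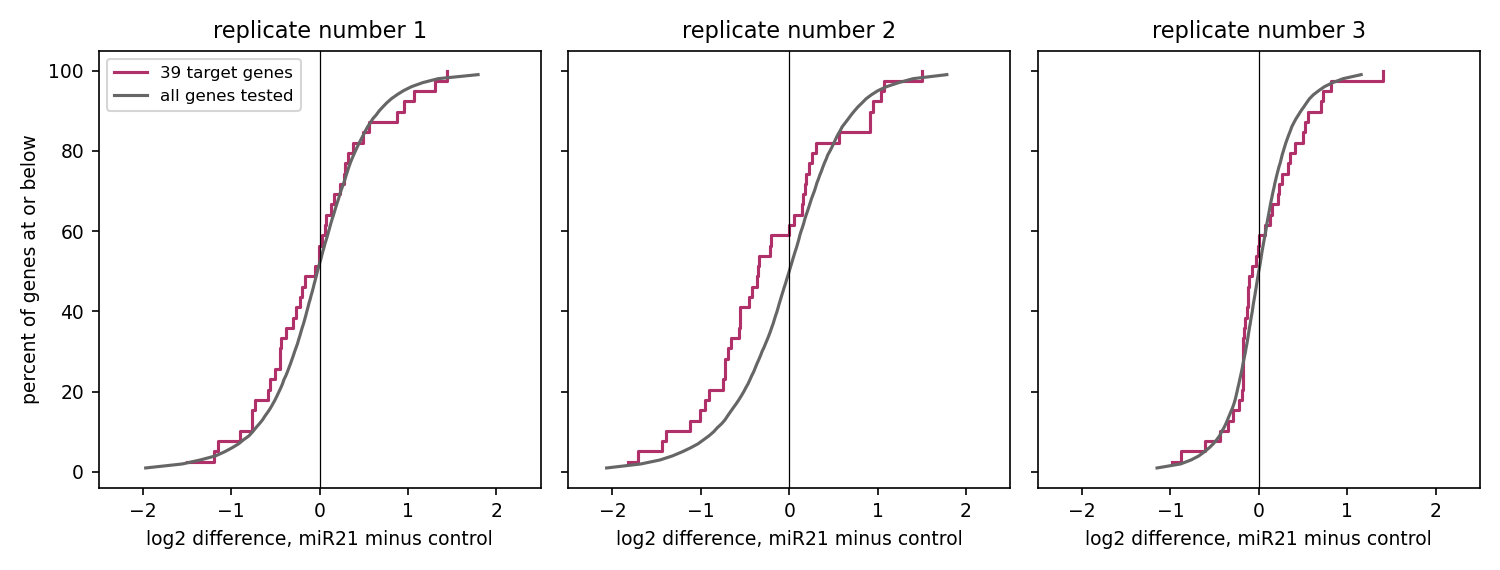
Percent of genes (vertical axis) at or below a log2 difference, miR21 minus control (horizontal axis), in each replicate number, for the 39 measured genes (stepped line) and for all 12204 genes tested (smooth line, percentiles 1 to 99). The stepped line stands left of the smooth line below 0 in number 2, where the median of the list was -0.36, and the lines lie closer together in numbers 1 and 3.

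Other probe sets of the same genes gave a second readout on the same arrays, which the choice of the brightest one did not use. The 43 genes had 140 probe sets that name them alone, and 105 were above the filter. For the measured genes, 66 of these were not the brightest, and 47 of the 66 (71.2%) had the sign of the brightest one, against 68.9% over all genes tested. For genes lower with miR21 the count was 30 of 34, against 3855 of 5215 over all genes tested, and for genes higher it was 17 of 32, against 3417 of 5338. The 14 genes whose groups did not overlap, or that differed by 0.5 or more on average with 1 sign in all 3 numbers (10 lower and 4 higher, 35.9% of the 39, against 17.5% of all genes that meet the same rule) had 22 such other probe sets, and 22 of 22 had the same sign. Over all genes that meet the rule the share was 82.3%. For the 25 measured genes of the list that do not meet it, 25 of 44 (56.8%) had the same sign. In all these counts the sign is that of the mean over the 3 numbers. Some of the 22 had mixed signs between the numbers, among them probe sets of NFIB, MARCKS and PRRG4. The rule picked the 14 genes on these same arrays, and many of the 22 probe sets share a gene. Their shared sign is therefore no independent test. SLC16A10, YOD1, TP53BP2 and GPD1L had no other probe set above the filter.

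**Figure D4:**
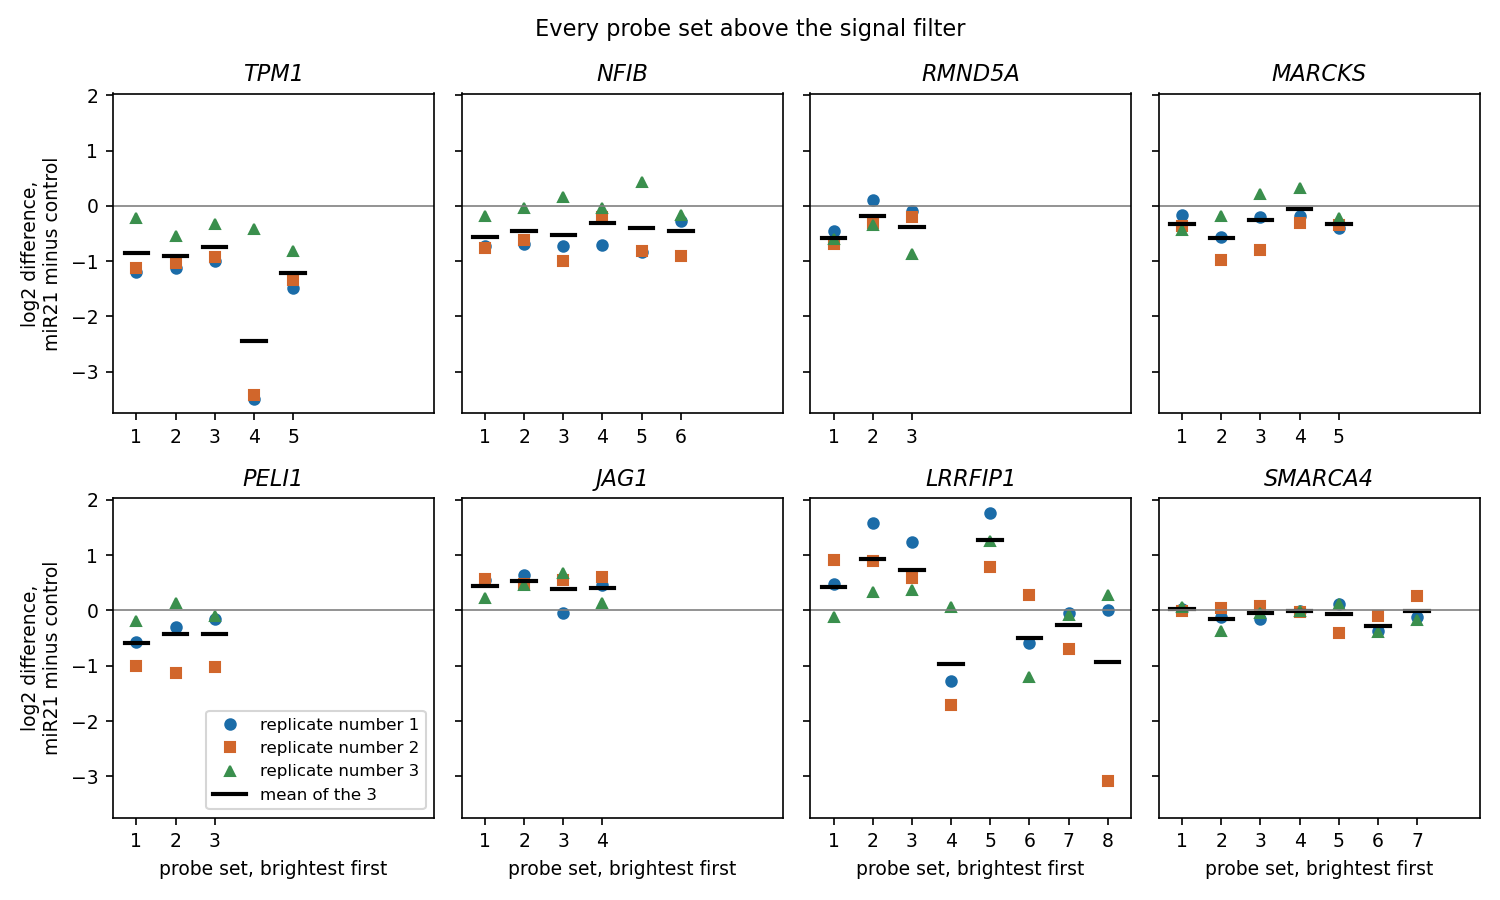
Log2 difference, miR21 minus control (vertical axis), of every probe set above the filter, brightest first (horizontal axis), for 8 genes with several, in replicate numbers 1 to 3 (circles, squares, triangles) with the mean (black line). The means of TPM1, NFIB, RMND5A, MARCKS and PELI1 lie below 0 for every probe set, those of JAG1 above it, those of LRRFIP1 from -0.97 to 1.27, and those of SMARCA4 near 0.

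Close relatives of the targets, which are not on the list, were set beside them. Of 36 such genes 30 lay above the filter; their median was 0.05 on the log2 scale, 4 lower and 10 higher in all 3 numbers, and 0 called by limma with or without the block. NFIA, of the same family as NFIB, differed by -0.64 (its 3 other probe sets above the filter also lower), while NFIX differed by 0.42 and NFIC by -0.21. The probe sets above the filter lay on both sides of 0 for NFIX (-0.13 to 0.42) and for NFIC (-0.21 to 0.21). TPM4, a further tropomyosin, differed by -0.36 and TPM2 by 0.32, with another TPM2 probe set on the other side of 0. NFIA, NFIX, NFIC, TPM4 and TPM2 were chosen after their values were seen. SPRY4, of the Sprouty family, differed by 1.03, with 0.86, 1.90 and 0.34 in numbers 1, 2 and 3. PELI2, a relative of PELI1, differed by 0.96, CPEB4 by 0.90 and the nuclear receptor gene PPARG by 0.74, all higher in the 3 numbers.

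Sprouty proteins restrain the ERK pathway, and genes that ERK signalling is known to induce were therefore listed too. All 14 were measured, 7 higher and 1 lower in all 3 numbers, with a median of 0.72 and 0 called. The ETS factor genes ETV4 and ETV5 differed by 2.00 and 1.14, the phosphatase gene DUSP5 by 1.53 and the early response gene FOS by 1.51. In number 3 the difference was 0.19 for ETV5, 0.49 for DUSP5, 0.29 for FOS and 1.25 for ETV4. On the other side of 0 were MYC (-0.54, lower in all 3 numbers), EGR1 (-0.30), SPHK1 (-0.26) and ETV1 (-0.19), which are the 4 of the 14 below 0. For the Notch pathway, which JAG1 activates, 11 of 16 genes lay above the filter, 5 higher and 0 lower in all 3 numbers, and the median was 0.11, with 0 called. The target gene HEY1 differed by 1.47, the sheddase genes ADAM17 and ADAM10 by 0.99 and 0.76, and the feedback gene NRARP by 0.64. HEY1 differed by 0.12 in number 3, against 1.67 and 2.63 in numbers 1 and 2.

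Of 17 further reported miR-21 targets that are not on the list, 11 were measured, 8 lower and 0 higher in all 3 numbers, with a median of -1.22 and 0 called. They were listed with earlier results of these data known, so the size of that median is no independent evidence. The largest of them were SKP2 (-1.92), CDC25A (-1.86), TGFBI (-1.73) and APAF1 (-1.28), of which the first 2 act in the cell cycle. In number 3 the difference was smaller, at -1.03 for SKP2, -0.24 for CDC25A, -0.67 for TGFBI and -0.46 for APAF1. A second probe set above the filter differed by -1.34 for SKP2, -0.43 for CDC25A and -0.24 for APAF1. TGFBI had 1 probe set. The 39 genes of the list, with their median of -0.09, and these 11 were not tested against each other.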

How the data were processed

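RNA of 6 SKOV3 samples was read on Affymetrix U133 Plus 2.0 arrays. MAS5 is the tool that the submitters' processing notes name, without its version or settings. The authors deposited intensity values on a linear scale for 54675 probe sets, and leaving out the top and bottom 2% gave every array a mean of 500, so this scaling removes any change common to most transcripts. The number of arrays limits the precision. The platform annotation names 1 gene for 41091 probe sets, several for 1801 and none used here for 11721; 62 are controls. Entrez identifiers of all 43 genes with a probe set matched a RefSeq table (GRCh38.p14), and 0 symbols changed. The files name no genome build, so no gene coordinates are given.

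Each gene was represented by its brightest probe set naming it alone, and a gene had to exceed, in mean log2 signal, the median over every probe set, 6.03 (a signal of 65.5). The log2 signals were compared with limma 3.58.1 in R 4.3.3 (variance trend, Benjamini-Hochberg adjustment at 0.05), with no pseudocount. The steps were also run on simulated data, where recovery was required only of the fit with the replicate block, for the largest simulated differences. How small a difference the fit without the block could call is not given. Replicate numbers come from the titles. The deviations of same-numbered arrays from their group means correlated with 0.899, 0.639 and 0.636 for numbers 1, 2 and 3 (-0.754 to 0.411 between other numbers), and the numbers were taken to pair the arrays. Deviations from a mean of 3 arrays sum to 0, so negative values are partly built in. Numbers 2 and 3 also correlated across, with 0.411 and 0.281. In log2 signal, control array 2 correlated with 0.964 with miR21 array 3 and 0.947 with miR21 array 2. Counts over all 3 numbers rest on this pairing. The labels do not say that replicates came from separate cultures, so the p-values reflect the spread among these 6 samples, possibly technical.

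Values on every array are given for measured genes whose groups do not overlap, that differ by 0.5 or more on average with 1 sign in all 3 numbers, or that pass either fit, and for others where the text needs them. Of each further list, up to 4 genes of largest difference with 1 sign in all 3 numbers are named. A further marker gene is not reported here. The members and lists were chosen with earlier results of these data known. The alternatives tried were centring on the median, quantile normalization, an offset of 16 before log2, an upper quartile filter or none, averaging all probe sets of a gene, no variance trend, array weights, the replicate block, and leaving out arrays or replicate numbers.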

Additional observations from a re-analysis of the deposited data

How the results depend on the processing

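Under the 18 alternatives, 22 of the 39 measured genes kept their direction, and none of the 14 that met the rule for full values reversed. The replicate block left the count of called genes on the list at 0, and that count was 0 under every alternative that keeps all arrays. With arrays or replicate numbers left out it lay between 0 and 25, the 25 with the block and without number 3. The median of the list was -0.30 with no filter, but over 43 genes, the dim ones included, while the differences of the 39 stayed the same. For the 39 it was -0.31 with array weights (chosen after seeing the data) and 0.0059 with arrays centred on their median. With arrays left out it lay between -0.39 (without miR21 replicate 1) and 0.034 (without control replicate 1). The count lower in all numbers, 15 of 39, was 12 with centred arrays, 11 of 37 with the mean of all probe sets and 11 of 30 with the upper quartile filter, and it lay between 15 and 21 with arrays left out, where fewer numbers have to share a sign. With centred arrays STAT3 (0.015) and WWP1 (0.0059) reversed. With the mean of all probe sets SOCS6 (-0.016), JAG1 (-0.013), PPARA (-0.25), LRRFIP1 (-0.012) and SMARCA4 (-0.17) reversed, and with array weights RASGRP1 (-0.44) and PPARA (-0.0028); the cause was not tested. With arrays left out, 16 genes reversed at least once: ANP32A (-0.13 to 0.26), FBXO11 (-0.61 to 0.89), JAG1 (-0.38 to 1.22), PLEKHA1 (-1.26 to 0.29), PPARA (-0.15 to 0.29), RASGRP1 (-0.36 to 0.62), SASH1 (-0.84 to 0.32), SKI (-0.63 to 0.20), SMARCA4 (-0.10 to 0.14), SOCS6 (-0.18 to 1.34), SPRY1 (-0.0065 to 0.46), SPRY2 (-0.093 to 1.05), STAT3 (-0.24 to 0.090), TIAM1 (-0.039 to 0.39), TOPORS (-0.63 to 0.57) and WWP1 (-0.45 to 0.31). With the block and both arrays of a number left out, TOPORS (-0.056) and PPARA (-0.0033) reversed without number 1, TOPORS (-0.021), PPARA (-0.066), STAT3 (0.058) and WWP1 (0.069) without number 2, and RASGRP1 (-0.20), SKI (0.037) and FBXO11 (-0.072) without number 3. Among genes that kept their direction, leaving out arrays moved JMY (0.34 to 1.58), PRRG4 (-1.79 to -0.27), YOD1 (-1.30 to -0.26), RMND5A (-1.07 to -0.15), PELI1 (-1.05 to -0.13), PPIF (0.16 to 0.96), TPM1 (-1.24 to -0.55), SLC16A10 (-1.41 to -0.72) and GPD1L (0.72 to 1.60).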
